A study of Drosophila melanogaster with 4 samples.

Results

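The distal ends of 4 chromosome arms of Drosophila melanogaster were examined for trimethylation of lysine 9 of histone H3 (H3K9me3) in nuclei of adult heads. Each end was taken as the 300 kb that face the telomere: positions 1 to 300000 of 2L, 3L and X, and positions 27605054 to 27905053 of 3R, on FlyBase release 5. They were divided into 1200 windows of 1 kb, 300 on each arm, out of 97881 whole windows on these 4 arms and 139706 on all the sequences that carried clusters. The windows were chosen by position alone. The value of a window or a region is the percent of its bases that lay inside the enriched clusters deposited by the authors, called coverage here.

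The flies were of the wild-type Oregon-R strain, labelled as mixed adults with no sex given, and were kept in population cages on a 22-day adult cycle, per the labels' protocols. The study held 2 ChIP libraries, made with an antibody to H3K9me3 described as a new lot, and 2 input libraries. The clusters came in 3 lists, one for ChIP replicate 1, one for ChIP replicate 2 and one for the series, here called the combined set. Nothing in the labels says that the replicates came from separate cages or collections, and their spread, which sets each SD below, may be a technical one. No file of read counts was used, so sequencing depth is unknown. A whole head holds neurons, glia, fat body and muscle, and a cluster list cannot tell a mark in a few cells from a weaker mark in all of them.

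H3K9me3 is the mark read by heterochromatin protein HP1, and both are found in the blocks of repeats around centromeres. Drosophila telomeres are not made by a telomerase. They are arrays of the retrotransposons HeT-A, TAHRE and TART, followed on the inner side by telomere-associated repeats and then by genes, and HP1 is needed to cap them. Reporter genes inserted in the telomere-associated repeats are often silenced, a behaviour known as telomere position effect. How much of these repeats the release 5 arm sequences hold was not examined, so the distances below are from the end of the sequence and not from the end of the chromosome.

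Genes could not be placed on the clusters, because the gene table at hand is for assembly Release 6 and positions were not carried between releases. Taken for gene order alone, that table lists as the outermost protein-coding genes of 2L l(2)gl, a tumour suppressor of cell polarity, then Ir21a, a receptor of the ionotropic family, and Cda5, a chitin deacetylase. On 3L the order starts with mthl8, a methuselah-like receptor, and Lsp1gamma, a subunit of a larval serum protein, is the third. On 3R it starts with Map205, a microtubule-associated protein, mod, which encodes the DNA-binding protein Modulo, and krz, the arrestin Kurtz. Among the first 8 on the X is G9a, a histone H3 lysine 9 methyltransferase. None of these genes is linked here to a cluster.

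The ends carried few clusters. Replicate 1 had 13 clusters over 24.3 kb of the 4 ends, replicate 2 had 18 over 34.7 kb and the combined set had 43 over 80.7 kb. Coverage was 2.03% in replicate 1, 2.89% in replicate 2, and 6.73% for the combined set, with a replicate mean of 2.46% ± 0.61 (SD, n = 2 ChIP replicates, as for all values given with ± below). The clusters were short. At the ends, replicate 1 clusters had a median width of 1887 bp and replicate 2 clusters one of 1800 bp, against 1938 and 1916 bp in the interior of the same arms, and no cluster of a replicate in the ends was wider than 2861 bp. The interior stands here for the arm without its distal 300 kb and without the 2 Mb at its centromere end, 88.7 Mb in all, in which the widest clusters measured 26335 bp in replicate 1 and 27972 bp in replicate 2. These maxima are over 2197 and 1925 clusters, against 13 and 18 at the ends, so the widest clusters are not directly comparable. Which end of the sequence faces the centromere could be read from the data on 2 arms: the last 2 Mb of 2L and of 3L were 42.6% ± 1.38 and 65.5% ± 1.69 covered, while on 3R and the X the centromere-end 2 Mb were 7.43% ± 0.02 and 15.4% ± 0.14 covered.

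**Figure D1:**
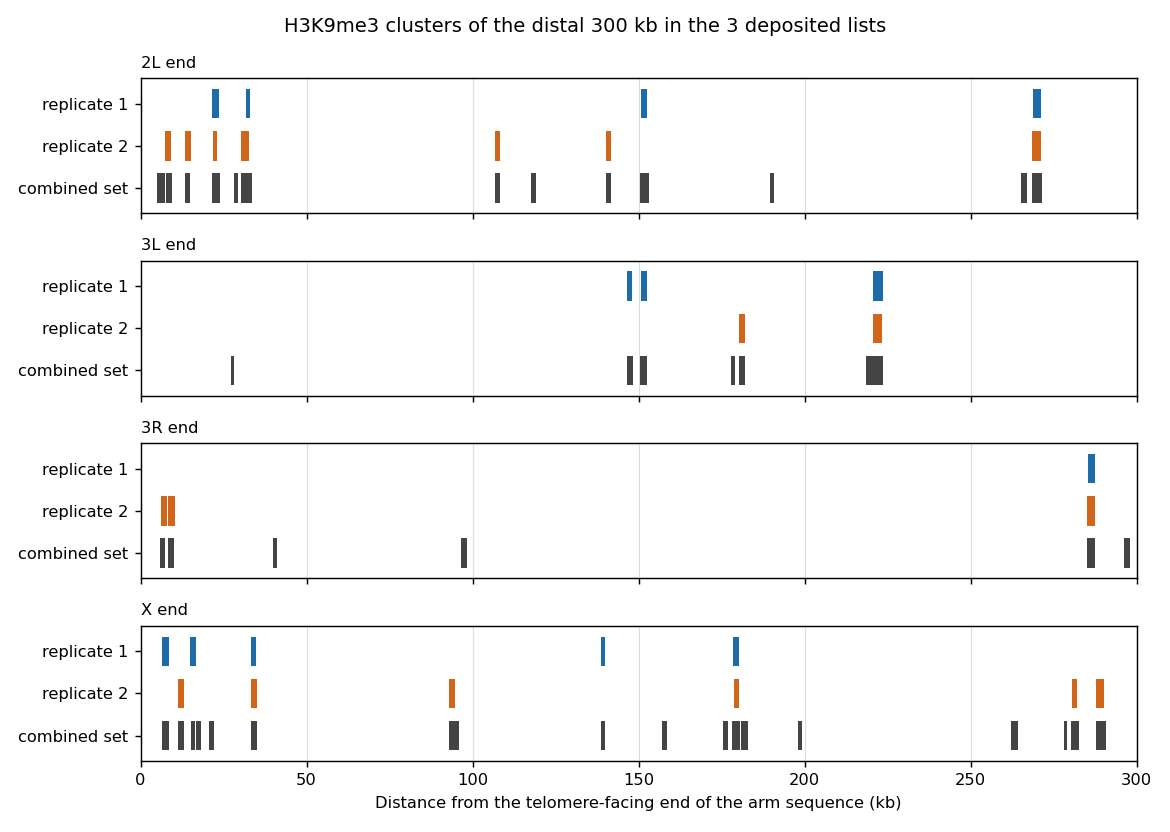
Map of the clusters in the distal 300 kb of 2L, 3L, 3R and X. The horizontal axis is the distance from the end of the arm sequence in kb, and each block is 1 cluster of replicate 1, replicate 2 or the combined set, drawn to scale. The replicates left the outermost 146 kb of 3L empty, and replicate 1 had a single cluster on 3R, 285 kb from the end.

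The first comparison set the ends against the interior of the same arms. Every end was covered less than its interior in both replicates and in the combined set. Over the 4 ends coverage was 2.46% ± 0.61, against 5.47% ± 0.54 in the interior, a difference of -3.02 points ± 1.15. The difference was -3.83 points in replicate 1, -2.20 points in replicate 2, and -5.17 points for the combined set. With 2 replicates the exact two-sided sign-flip permutation test cannot go below p = 0.5, so it can call none of these differences, and they are described by their values in the replicates.

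In percentage points, with this end and this interior, the X showed the largest difference of the 4 arms. As a ratio of the replicate means, end over interior, 3R was the lowest at 0.330, against 0.363 for the X, 0.402 for 3L and 0.697 for 2L. The 3L difference was the larger one with the distal 100 kb as the end, at -4.40 points against -3.50 for the X, and with the centromere-end 2 Mb in the interior, at -7.68 against -6.20. The X end was 2.78% covered in replicate 1 and 3.61% in replicate 2, against 9.20% and 8.39% in its interior, which is -5.60 points ± 1.15. The 3R end was 0.731% covered in replicate 1 and 2.02% in replicate 2, against 4.52% and 3.81% in the 3R interior, or -2.79 points ± 1.41. The 3L end was 2.04% and 1.52% covered, against 4.85% and 3.98% in the 3L interior, or -2.64 points ± 0.25. On these 3 arms the difference was larger than its SD between replicates, by the least margin on 3R. An SD of 2 replicates does not measure how firmly an end and its interior are separated.

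The 2L end lay nearest to its interior in percentage points, in each replicate and in the combined set. It was 2.55% covered in replicate 1 and 4.41% in replicate 2, against 5.34% and 4.65% in the 2L interior. The difference of -1.51 points ± 1.80 was smaller than the spread between replicates, and in replicate 2 alone it was -0.24 points. In the combined set it was -2.18 points, with 8.55% at the end and 10.7% in the interior. With the end taken as the distal 100 kb, the 2L difference turned to 0.61 points ± 3.59.

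Counts of windows gave the same order. Windows at least 50% covered numbered 23 of the 1200 in replicate 1, or 1.92%, against 5.88% of the interior windows and 8.00% of all windows of the 4 arms. In replicate 2 there were 34, or 2.83%, against 5.16% of the interior and 7.43% of all windows. In the combined set there were 81, or 6.75%, against 12.0% and 14.4%. Only 11 windows of the ends reached this level in both replicates, 4 on 2L, 3 on X and 2 each on 3L and 3R, which is 0.917% against 3.57% of the interior and 5.69% of all windows. Windows with any base covered in both replicates numbered 21, or 1.75%, against 5.06% of the interior and 7.30% of all windows.

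The position of each end among the blocks of its own arm was also described. The interiors were cut into successive blocks of 300 kb, the size of an end. On the replicate mean the X end lay below 59 of 67 interior blocks, the 3R end below 73 of 85, the 3L end below 55 of 74 and the 2L end below 48 of 69. The interior blocks themselves ranged widely, between 0% and 20.0% over the 4 arms with a median of 4.80%. In replicate 2 alone the 2L end, at 4.41%, lay above 39 of the 69 blocks and above their median of 3.92%. The X, 3R and 3L ends lay below more than 50% of the blocks of their arm in each replicate and in the combined set. Each of the 4 ends was inside the range of the interior of its arm.

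The next 300 kb inward were covered more than the end on each arm, in both replicates and in the combined set. The stretch between 300 and 600 kb was 5.95% ± 0.61 covered on 2L, 6.38% ± 1.53 on 3L and 6.14% ± 0.61 on 3R. That of the X was 10.3% ± 3.86 covered. The end minus this neighbour was -2.96 points in replicate 1 and -1.97 in replicate 2 on 2L, a mean of -2.47 ± 0.70. On 3L it was -3.26 and -5.94 points, a mean of -4.60 ± 1.90, and on 3R -4.98 and -4.56 points, a mean of -4.77 ± 0.30. On the X it was -10.2 and -3.96 points, a mean of -7.10 ± 4.44. There most of the spread came from the neighbour, which was 13.0% covered in replicate 1 and 7.57% in replicate 2. Coverage did not rise steadily further in. Between 600 and 900 kb the X was 2.51% ± 1.49 covered, below the 3.19% of its end. The other blocks out to 1500 kb stayed above the end of their arm on the replicate mean.

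**Figure D2:**
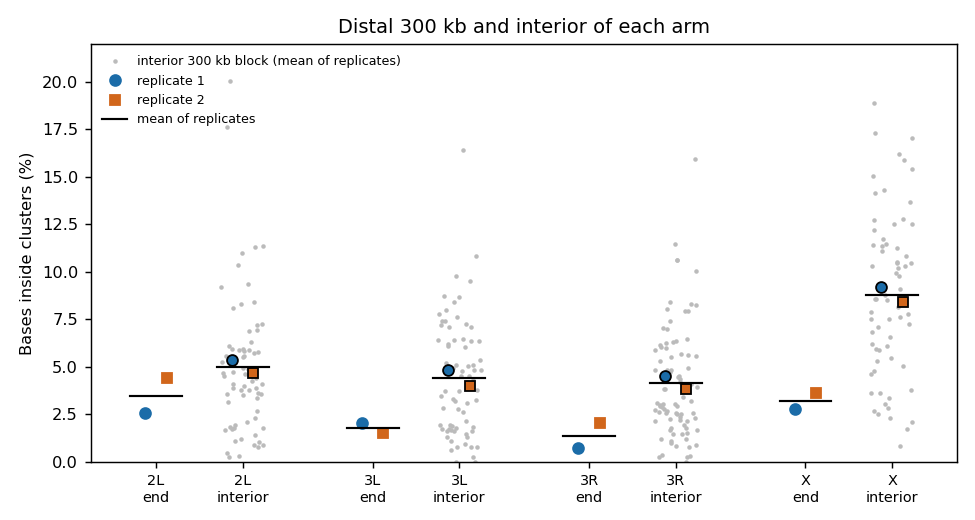
Coverage in percent of bases for the distal 300 kb (left of each pair) and the interior (right) of each arm. Coloured points are the 2 ChIP replicates, black lines their means, and grey dots successive 300 kb blocks of the interior as replicate means. Both replicates of the X end, at 2.78% and 3.61%, lie far under those of the X interior, at 9.20% and 8.39%, and on 2L the end and the interior nearly meet in replicate 2.

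The second comparison was between the arms. The X end was 3.19% ± 0.58 covered, the 2L end 3.48% ± 1.31, the 3L end 1.78% ± 0.37 and the 3R end 1.37% ± 0.91. X and 2L could not be ordered: X was 0.23 points above 2L in replicate 1 and 0.80 points below it in replicate 2. Likewise 3L was 1.31 points above 3R in replicate 1 and 0.50 points below it in replicate 2. Both X and 2L exceeded both 3L and 3R in each replicate, by between 0.516 and 2.89 points, and by between 4.22 and 6.78 points in the combined set.

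The X is the arm with more scattered clusters elsewhere, and at its end that excess was smaller in percentage points. The X end exceeded the pooled 3 autosomal ends by 1.01 points in replicate 1 and 0.96 points in replicate 2. In the interior the X exceeded the same 3 arms by 4.32 points in replicate 1 and 4.27 points in replicate 2. The means were 0.98 ± 0.03 points at the ends and 4.30 ± 0.03 points in the interior. These SDs rest on 2 replicates and do not measure how firmly the means are separated. The coverage of single ends had SDs between 0.37 and 1.31 points. In the combined set the excess was 4.90 points at the ends and 7.60 points in the interior. As a ratio, end over interior, the X lay below the pooled autosomal arms in both replicates. The values were 0.302 against 0.364 in replicate 1 and 0.430 against 0.643 in replicate 2. In the combined set the X lay above those arms, at 0.585 against 0.541. The excess at the ends was 2.76 points ± 1.74 over the distal 100 kb, and 0.57 points ± 0.05 for clusters from the median score of their list up. Counted as clusters, the X end had 18.3 ± 2.36 clusters per Mb against 36.1 ± 1.79 in its interior. On 2L the lists differed in direction: the end had 13.3 clusters per Mb against 21.7 in the interior in replicate 1, but 23.3 against 18.7 in replicate 2 and 46.7 against 45.6 in the combined set. The 3L end had 8.33 ± 2.36 per Mb against 19.4 ± 2.51 in its interior, and the 3R end 6.67 ± 4.71 against 18.9 ± 2.18, each lower at the end in every list.

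The third comparison was the distance from the end of each arm to its first cluster. On the X the first cluster lay 6.48 kb from the end in replicate 1, 11.2 kb in replicate 2, and 6.51 kb for the combined set. On 2L it lay 21.6 kb from the end in replicate 1, 7.36 kb in replicate 2, and 5.07 kb for the combined set. Both arms therefore had a cluster within 22 kb of the end in every list.

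On 3L the first cluster lay far inside: 146 kb from the end in replicate 1 and 180 kb in replicate 2. These were not the same cluster, and the first stretch called by both replicates on 3L began 221 kb from the end. The combined set had a cluster at 27.2 kb, described further on, and its next lay at 146 kb. As a yardstick, the distance to the next cluster inward was measured from the outer border of each of the 74 interior blocks of 3L. Its median was 43.7 kb in replicate 1 and 45.7 kb in replicate 2, and it was shorter than that of the end at 64 and 65 of the 74 borders. In the combined set the median was 16.7 kb, and 45 of the 74 borders had a nearer cluster than the end.

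On 3R the replicates differed. Replicate 1 had no cluster in the outermost 285 kb, a longer distance than at 82 of 85 interior borders of that arm, whereas replicate 2 had its first cluster 6.22 kb from the end and the combined set at 5.85 kb. The first stretch called by both replicates began 285 kb from the end on 3R, 33.4 kb on the X and 21.8 kb on 2L. The SD of the mean distance on 3R, 146 kb ± 197, is larger than the mean. On 2L, with 14.5 kb ± 10.1, and on the X, with 8.86 kb ± 3.37, the first cluster was nearer in each replicate than the median over interior borders, which was 36.7 and 41.2 kb on 2L and 21.6 and 26.5 kb on the X. In the combined set this held for 2L, with 5.07 kb against 12.6 kb, but not for the X, with 6.51 kb against 5.51 kb, where 35 of 67 borders had a nearer cluster than the end. On 2L such borders numbered 23 of 69 in replicate 1 and 12 of 69 in replicate 2. On the X they numbered 21 of 67 in each replicate, and on 3R 10 of 85 in replicate 2.

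The fourth comparison followed coverage inward in steps of 50 kb. Over the 4 arms together the outermost step was the most covered of the 6 in each list. It was 4.25% covered in replicate 1, 7.48% in replicate 2, and 14.2% for the combined set, and the second step, between 50 and 100 kb, was the least covered, at 0%, 0.90% and 2.54%. The remaining steps, in order inward, were 1.44% ± 0.03, 2.18% ± 0.87, 1.43% ± 0.00035 and 3.37% ± 1.64 covered. The outermost step exceeded the other 250 kb by 2.67 points in replicate 1, 5.51 points in replicate 2, and 8.94 points for the combined set.

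The outermost step was the higher one in both replicates on 2L and the X, and on 3R in replicate 2 alone. The outermost 50 kb of 2L were 6.76% covered in replicate 1 and 15.6% in replicate 2, against 1.71% and 2.18% in the next 250 kb. Those of the X were 10.2% covered in replicate 1 and 7.07% in replicate 2, against 1.29% and 2.92% in the next 250 kb. On 3L the outermost 50 kb were at 0% in both replicates, against 2.44% and 1.82% further in. On 3R they were at 0% in replicate 1 and 7.29% in replicate 2, against 0.877% and 0.962%. For scale, the median interior step of 50 kb was 3.40% covered in replicate 1 and 2.82% in replicate 2. Single interior steps reached 60.1% and 59.7%. Pooled over the 4 arms, the interior was 5.86% covered in replicate 1, 5.09% in replicate 2 and 11.9% by combined clusters. The outermost 50 kb, pooled likewise, were 4.25%, 7.48% and 14.2% covered. Pooled, they were therefore below the interior for replicate 1 only, and above it for the other lists. The arms differed in this, each set against its own interior. The outermost 50 kb were higher in every list on 2L and lower in every list on 3L. Those of the X were lower in replicate 2, at 7.07% against 8.39%, and higher in the other lists. Those of 3R were higher in replicate 2 alone, and in the combined set they were 9.17% covered against 10.2%. The lower coverage of the 300 kb ends thus did not hold for their outermost 50 kb in every list.

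Steps that held nothing were common at the ends and in the interior. Of the 24 steps of the 4 ends, 14 had no cluster sequence in replicate 1, 13 in replicate 2, 10 in both replicates and 8 in all 3 lists. Empty steps made up 41.0% of the 1772 interior steps in replicate 1 and 45.5% in replicate 2. In both replicates 34.7% of the interior steps were empty. In the combined set the share was 21.6%, beside 8 of the 24 steps of the ends. The highest step of each arm on the replicate mean, and the steps at 0% in both replicates, which were its lowest, were as follows. On 2L the outermost step, at 11.2% ± 6.22, stood above the rest, and 50 to 100 kb and 200 to 250 kb were empty in all 3 lists. On 3L the step between 200 and 250 kb was highest, at 5.72% ± 0.0014, and 50 to 100 kb and 250 to 300 kb were empty in all 3 lists, while the outermost step was empty in both replicates and 2.00% covered in the combined set. On 3R the step between 250 and 300 kb was highest, at 4.60% ± 0.30, and the 3 steps between 100 and 250 kb were empty in all 3 lists, while 50 to 100 kb was empty in both replicates and 3.95% covered in the combined set. On the X the outermost step was highest, at 8.65% ± 2.24, and 200 to 250 kb was empty in all 3 lists. A step with no cluster is one in which nothing was called, and gaps in the assembly and repeats where reads cannot be placed were not examined.

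**Figure D3:**
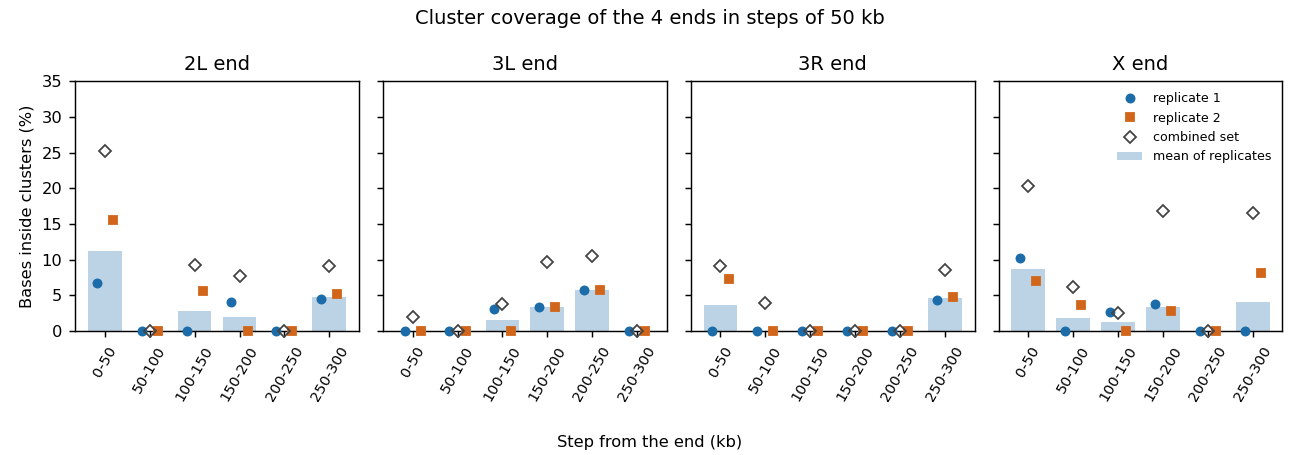
Coverage in percent of bases for the 6 successive 50 kb steps from the end of each arm. Bars are the means of the 2 ChIP replicates, filled points the replicates and open diamonds the combined set. The outermost step of 2L stands at 6.76% and 15.6% in the replicates and that of the X at 10.2% and 7.07%, whereas on 3L it is at 0% in both.

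The longest intervals called in neither replicate show the same unevenness. On 3R nothing was called in either replicate over 275 kb, between 10.2 and 285 kb from the end (27620088 to 27894820), an interval that ranked 12 in length of the 725 on that arm, and the combined set covered 1.13% of it with 3 clusters. On 3L the interval ran over the outermost 146 kb (1 to 146420), ranked 33 of 658, and was 0.724% covered in the combined set. On 2L it measured 116 kb (152618 to 268567), ranked 54 of 660, with 3.02% covered in the combined set. On the X it measured 100.2 kb (180261 to 280452), ranked 33 of 1062, with 6.96% covered in the combined set.

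The clusters themselves were then compared between the replicates. Only 7 stretches of the ends were called in both: 3 on 2L, 2 on the X, 1 on 3L and 1 on 3R. They made up 7 of 13 clusters of replicate 1, or 53.8%, and 7 of 18 of replicate 2, or 38.9%. In the interior these shares were 61.9% of 2197 and 70.9% of 1925. The Jaccard index, the sequence covered in both replicates over that covered in either, was 0.272 at the ends and 0.471 in the interior, and it was lower at the end than in the interior on each of the 4 arms. It was 0.181 at the X end, 0.293 at the 2L end, 0.351 at the 3L end and 0.362 at the 3R end. A few clusters decide each of these values. Clusters are also not independent of each other, so no test was made on them.

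The shared stretches were spread over the full depth of the ends. On 2L replicate 1 called 21606 to 23581 with a score of 0.50 and replicate 2 called 21819 to 23152 with a score of 0.43. The score is the authors' own value per cluster, on a scale that is not stated, and serves here only to describe and rank clusters within a list. A second 2L cluster ran from 31627 to 33031 in replicate 1, with a score of 0.53, and from 30248 to 32780 in replicate 2, with a score of 0.72. A further one, 269 kb from the end, ran from 268795 to 271035 in replicate 1 and from 268568 to 271183 in replicate 2, with scores of 0.64 and 0.84. On 3L the shared cluster spanned 2861 bp in replicate 1, from 220634 to 223494, and 2860 bp in replicate 2, from 220542 to 223401, with scores of 0.81 and 0.65. It was the widest cluster of the 4 ends in each replicate. On 3R the clusters ran from 27617714 to 27619905 in replicate 1 and from 27617683 to 27620087 in replicate 2, with scores of 0.56 and 0.60. On the X one pair lay at 33354 to 34871 in replicate 1 and 33225 to 34957 in replicate 2, with scores of 0.55 and 0.62, and one at 178340 to 180226 and 178814 to 180260, with scores of 0.66 and 0.63. Replicate 1 covered 45.6% of the replicate 2 cluster in the second 2L pair, and between 85.7% and 100% in the other 6 pairs. None of the scores of the 7 pairs reached the median of its list.

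Scores at the ends were low for their lists, as were those of most interior clusters of the same arms. The median over a whole list was 0.827 in replicate 1, 0.893 in replicate 2, and 0.504 for the combined set. At or above it lay 1 of 13 clusters of the ends in replicate 1, or 7.69%, and 1 of 18 in replicate 2, or 5.56%, against 18.8% and 15.4% of the interior clusters of the same arms. In the combined set the numbers were 14 of 43, or 32.6%, against 37.4% of the interior clusters. The median score of the clusters was 0.56 at the ends and 0.66 in the interior in replicate 1, 0.63 and 0.67 in replicate 2, and 0.43 and 0.46 in the combined set. By arm, the median was lower at the end in each list except on the X in replicate 2, with 0.81 against 0.78. On 3L in the combined set, 33.3% of 6 end clusters were at or above the list median, against 27.2% in the interior.

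The only clusters of the ends at or above the median of their replicate lay within 17 kb of the X tip, and they were not the same stretch. Replicate 1 called 15010 to 16607 with a score of 1.46, rank 1342 of 5083 in its list. Replicate 2 called nothing there. It called 11246 to 13045, with a score of 1.09, rank 1954 of 4595, where replicate 1 called nothing. The 2 clusters lay 1.96 kb apart. The combined set listed both stretches, from 15288 to 16319 with a score of 1.10 and from 11214 to 13184 with a score of 0.94, and between 6.51 and 22.0 kb from the X end it listed 5 clusters in all. One of these 5, from 6515 to 8551, was found in replicate 1 alone, and the innermost pair, 16617 to 18341 and 20519 to 22047, was found in neither replicate. The first of that pair nearly touched the replicate 1 cluster from 15010 to 16607, at a gap of 0.009 kb.

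Replicate 2 was the higher of the replicates over the 4 ends together and the lower one over the interior. Its coverage minus that of replicate 1 was 0.862 points over the 4 ends and -0.767 points in the interior. By arm, replicate 2 was higher at the ends of 2L, 3R and X, by 1.85, 1.29 and 0.83 points, and lower at the end of 3L, by 0.52 points. Among the interior blocks of 300 kb replicate 2 was the higher one in 86 of 295 and replicate 1 in 206. An excess of replicate 2 at least as large as at the end was found in none of the 69 blocks of 2L, in 3 of the 85 of 3R and in 14 of the 67 of the X. Replicate 2 was also the higher one between 300 and 600 kb on 2L, 3L and 3R, and in the centromere-end 2 Mb of 2L, at 43.6% against 41.6% in replicate 1, and of 3L, at 66.7% against 64.3%. Among the windows of the ends at least 50% covered, 23 were called in replicate 2 but not in replicate 1, which is 1.92% against 1.58% of the interior and 1.74% of all windows of the 4 arms. The opposite was true of 12, which is 1.00% against 2.30% of the interior and 2.31% of all windows.

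The series list was compared with the replicates last. All 13 clusters of replicate 1 and all 18 of replicate 2 at the ends overlapped a combined cluster by at least 1 bp. Of the 43 combined clusters of the ends, 7 (16.3%) overlapped clusters of both replicates. Another 6 (14.0%) overlapped a cluster of replicate 1 only, 11 (25.6%) one of replicate 2 only, and 19 (44.2%) none. In the interior the shares of these 4 classes were 27.7%, 16.5%, 10.7% and 45.1% of 4610 clusters. Median widths at the ends were 2502 bp for clusters found in both replicates and 1377 bp for those found in neither, with 3168 and 1331 bp in the interior. The combined set covered 2.74 times as much of the ends as the replicates did on average, and 2.17 times as much of the interior. On the X these ratios were 3.26 and 2.02.

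**Figure D4:**
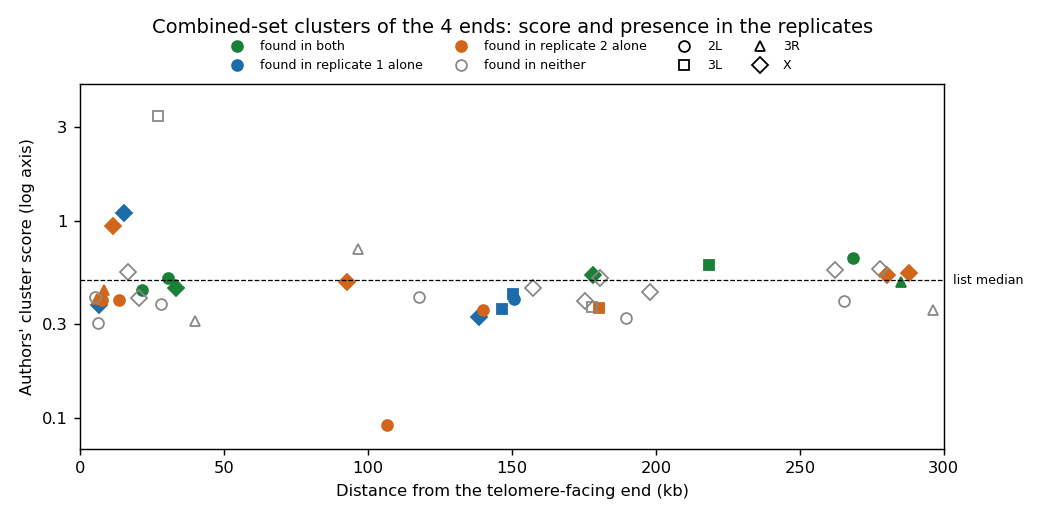
Score of each of the 43 combined-set clusters in the ends, on a logarithmic axis, against its distance from the end in kb. Colours give the replicates in which a cluster was found, shapes the arm, and the dashed line the median score of the combined set, 0.504. The point far above the others is the 3L cluster at 27.2 kb, with a score of 3.42 and found in neither replicate.

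The longest and the highest-scoring combined clusters were described end by end. On 2L the longest ran from 30380 to 33498 (3.12 kb, score 0.52), and it was 45.0% covered by replicate 1 and 77.0% by replicate 2. The next, from 268557 to 271371 (2.81 kb), had the highest score of the 2L end, 0.65, and was 79.6% covered by replicate 1 and 92.9% by replicate 2. The third longest, from 150514 to 153254, was found in replicate 1 alone, which covered 74.4% of it, and the third highest score, 0.45, belonged to 21477 to 23932, found in both.

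On 3L the longest was also the longest of all 4 ends: 5.25 kb, from 218323 to 223573, score 0.60. Each replicate covered 54.5% of it. It was followed in length by 150469 to 152444 and 146362 to 148268, both found in replicate 1 alone. On 3R the longest was 27617592 to 27620093 (2.50 kb, score 0.49), 87.6% covered by replicate 1 and 96.1% by replicate 2. The highest score of the 3R end, 0.73, was that of 27806603 to 27808575, found in neither replicate, and the third longest, 27894845 to 27896742, lay wholly inside replicate 2 clusters and had none in replicate 1.

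On the X the 3 longest combined clusters were 92808 to 95916 (3.11 kb, score 0.49), 287848 to 290624 (2.78 kb, score 0.55) and 280114 to 282697 (2.58 kb, score 0.54). All 3 were found in replicate 2 alone, which covered 57.9%, 85.2% and 64.6% of them. After the pair near the tip the third highest score of the X end, 0.58, was that of 277926 to 278946, found in neither replicate.

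The highest score of all was on 3L. The combined cluster from 27160 to 28160 had a score of 3.42, tied at rank 12 of 7929 in the whole list, a value that 16 clusters of the list shared, and a width of 1001 bp, the smallest width in the combined set, which 155 of its clusters shared. Neither replicate called it, and the nearest clusters were 118 kb away in replicate 1 and 152 kb away in replicate 2. It alone brought the first combined cluster of 3L to 27.2 kb from the end.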

How the data were processed

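The authors deposited 3 lists of enriched clusters, each with a start, an end and a score; no input list was analysed here. Per the file headers, the build is FlyBase release 5. The submitters' processing notes name Bowtie 0.12.7, a read aligner. Not given in the sources used here are the cluster caller, its threshold, the use of the inputs and the making of the combined set. The deposited score has no stated scale. Depth is unknown, and the number of clusters limits precision.

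Coverage, distances (bases between the sequence end and the nearer cluster edge), intervals and overlaps (at least 1 bp) were computed in Python 3.11.15 (numpy 2.4.6, scipy 1.17.1) and drawn with matplotlib 3.10.9. The code was checked on simulated clusters. Groups and replicate numbers came from the titles. The regions named by position are, on each end, the first cluster in each list, the 3 longest and 3 highest-scoring combined clusters, the longest interval called in neither replicate and the highest and lowest steps, besides every stretch called in both replicates. The ends, comparisons and rules were chosen with earlier results of these data known. The neighbouring 300 kb, the distances from interior borders, the order of the replicates and the repeated scores were added after seeing the data. Alternatives were a score threshold at each list's median, leaving out clusters under 1 kb, merging those separated by 1 kb or less, the combined set, each replicate alone, the distal 100 kb, an interior with the centromere-end 2 Mb, other window and overlap rules.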

Additional observations from a re-analysis of the deposited data

How the results depend on the processing

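No paired analysis was possible because the inputs, which share replicate numbers with the ChIP libraries, gave no values. Of the 72 recomputed values of 16 results, besides those from leaving out a replicate, 38 stayed within their spread, 33 moved further and 1 changed sign. The Jaccard index and the windows covered in both replicates had no spread, and any change in them was counted as a move. A minimum width of 1 kb moved none of them, since the replicates held no narrower cluster, and joining clusters up to 1 kb apart moved the Jaccard index alone, to 0.270. With the distal 100 kb as the end, 2L turned to 0.61 points above its interior, 3L was -4.40 points, the X -3.50 points, X over the autosomal ends 2.76 points, coverage 3.16%, the Jaccard index 0.188 and the windows covered in both replicates 4. The last count is over the windows of the distal 100 kb alone, whereas the main count was 11 over all 1200 windows, so the counts are not directly comparable. With the upper-scoring part of each list alone, from its median score up, coverage of the ends was 0.142%, the Jaccard index 0 and the windows 0; the differences from the interior were -1.40 points in all, -0.70 for 3L, -0.57 for 3R and -3.38 for the X, X over the autosomal ends was 0.57 points, the outermost 50 kb exceeded the rest by 0.85 points, and the first cluster lay 705 kb from the end on 2L, 840.2 kb on 3L and 684 kb on 3R, but 13.1 kb on the X. In the combined set the values were 6.73% for coverage, -5.17, -5.31, -6.57 and -7.37 points for all ends, 3L, 3R and X against the interior, 4.90 points for X over the autosomal ends, 8.94 points for the outermost step, 27.2 kb for the first 3L cluster and 81 windows, counted in that list alone. With the centromere-end 2 Mb in the interior the differences were -5.27 points in all, -4.83 on 2L and -7.68 on 3L. Windows with any base covered in both replicates numbered 21. Leaving out either replicate kept the sign of the differences of all ends and of each arm from the interior, of X over the autosomal ends and of the outermost step over all arms. It did not for X minus 2L (0.23 and -0.80 points in replicates 1 and 2), 3L minus 3R (1.31 and -0.50) and the outermost step of 3R minus its next 250 kb (-0.88 and 6.33). The windows covered in the replicate that remained numbered 23 in replicate 1 and 34 in replicate 2. Those are counts in a single list and not in both replicates.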

Other observations

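The score of the 3L cluster at 27160 to 28160, 3.42, was not its own: 16 clusters of the combined set had that score to within 1e-09. Of these 16, 15 were found in neither replicate, against 38.7% of the 7929 clusters of the list. On U, which strings together unplaced scaffolds, lay 11 of them, against 13.8% of the list, and on the 4 arms 3, against 65.3% of the list. Their widths ran between 1001 and 3778 bp. What sets the repeated score was not tested.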
